A study of Homo sapiens with 9 samples.

Results

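Human embryonic stem cell cultures on a curved plate were compared with the same cultures on a flat plate, with concave and convex bending pooled as curved. All 9 libraries of the study entered: 3 concave and 3 convex libraries on one side of the comparison and 3 flat libraries on the other. The cells were wild-type H9, an established embryonic stem cell line, so a single genetic background stands behind every group. They were plated on Matrigel-coated PDMS, a flexible silicone, and kept for 72 h in the pluripotency medium mTeSR1. In every group 48 h in N2B27 medium with SB431542 and LDN followed, inhibitors of TGF-beta and BMP receptors whose joint use, dual SMAD inhibition, drives cells towards neural ectoderm. The inhibitors were then continued for a last 24 h, during which the plate was bent to a concave shape, bent to a convex shape or left unbent. Polyadenylated RNA was sequenced from each culture. Each library carries a replicate number of 1, 2 or 3, so every number joins 1 flat, 1 concave and 1 convex library. The labels do not say what a number marks, nor whether replicates were separate cultures, so p-values reflect the spread among these 9 libraries alone.

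A gene was taken as lying on one side where both curved libraries of a number were above, or both below, the flat library of that number, and where this held the same way for numbers 1, 2 and 3. Levels are CPM values, that is counts scaled by the library's total and its TMM factor. The table lists 62710 genes; 23075 passed the filter on low counts, and 3771 of these (16.3%) lay on one side. Among them 1750 (7.58% of the genes tested) were higher and 2021 (8.76%) lower in the curved libraries. The count is a description and has no test. Both curved libraries of a number are set against 1 flat library, so a flat library that differs from all others puts both on the same side.

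The early neuroepithelium is a single sheet of columnar cells that later folds into the neural tube. Folding sheets constrict their apical surfaces through actin and myosin, hold together through junctions and polarity complexes, and anchor to a laminin-rich basement membrane through integrins. Bending and stretching are sensed by ion channels such as PIEZO1, by focal adhesions, and by the transcriptional co-activators YAP and TAZ, which act with TEAD factors.

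Library totals ran from 49420082 to 64763412 counts. For genes of at least 5 CPM the fitted log2 fold change had a median SE of 0.136. The distance of curved from flat libraries was unlike between the numbers. Over all genes, the median size of the log2 difference was 0.213 for number 1, 0.418 for number 2 and 0.141 for number 3. Deviations from the group mean correlated between flat and concave libraries at Pearson r = 0.49, 0.0339 and 0.397 across genes for numbers 1, 2 and 3, so that flat 2 and concave 2 hardly deviated together. The mitochondrial genome supplied 7.30%, 5.70% and 7.63% of the reads counted in flat 1, 2 and 3, and 6.57% to 10.5% in the curved libraries. Concave 3 stood apart in another way: for most genes that separated curved from flat in numbers 1 and 2, it lay on the other side of flat 3 from convex 3 (values at the end of the results). Whether the 3 libraries numbered 3 carry the right labels could not be checked here, and this bears on every count below that uses them. The counts of edgeR calls and some list medians are also given without them. The count of genes on one side is given without concave 3, and the shares of lists only with all libraries. SOX2 and OTX2, transcription factors of the neural plate and of the stem cell, were abundant in every library (470.1 to 822 CPM and 257 to 318 CPM). PAX6, which marks the committed human neuroectoderm, stood at 1.09 to 7.10 CPM.

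No gene passed the test of curved against flat. With the replicate number as a block, edgeR's quasi-likelihood test called 0 of 23075 genes at an adjusted p under 0.05 (0% called), and the smallest adjusted p was 0.168. At an unadjusted p under 0.05 there were 5511 genes (23.9%), 2481 higher (10.8%) and 3030 lower (13.1%), and limma voom, which also called 0, had 5662. DESeq2 with the same block called 1077 genes (4.67%), 517 higher (2.24%) and 560 lower (2.43%), of which 785 (72.9%) lay on one side. The rule of one side uses the same values as this fit, so that share adds no support. Both tools treat the concave and convex library of a number as separate observations. When their counts were summed, 0 genes were called by edgeR and 2305 had an unadjusted p under 0.05. On simulated counts with the same design, 50 genes of at least 5 CPM were changed at each fold. The test found 94% of those changed by 2-fold and 26% of those changed by 1.5-fold, and called 10 unchanged genes. Noise was simulated for each gene separately, with no library standing apart across genes. These shares therefore may not hold for the real counts and do not exclude 2-fold changes.

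The count of calls turned on the libraries numbered 3. Without flat 3 the edgeR test called 4584 genes (19.2%), 2254 higher (9.46%) and 2330 lower (9.78%). Without concave 3 it called 2210 (9.66%), 993 higher (4.34%) and 1217 lower (5.32%). Without all 3 libraries of that number it called 5002 of 23414 genes (21.4%), 2433 higher (10.4%) and 2569 lower (11%). Without flat 2, and likewise without number 2, it called 1. Every other single library left out gave 0 calls. The number of genes on one side also turned on concave 3: without it 9156 genes lay on one side, against 3947 to 4939 without any of the other curved libraries.

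The genes below are those with the smallest p among genes of at least 5 CPM on one side, 10 in each direction, of which 18 are shown. They were chosen by this contrast, so their values describe them and do not support the comparison. Each had an edgeR adjusted p of 0.168, and none passed. A value printed in brackets before an SE, here and below, is the log2 fold change of curved over flat. All 20 were called by DESeq2, and all 20 by edgeR without the libraries numbered 3, without flat 3 and without concave 3, while 0 of them were called without number 2.

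The 10 genes higher in curved cultures included the receptor genes HTR1A and GABBR1 and the channel gene RYR3. HTR1A, the serotonin 1A receptor (ENSG00000178394, chromosome 5, 63960356 to 63962507, minus strand), stood at 1.60, 2.63 and 5.67 CPM in flat 1, 2 and 3, at 2.60, 7.93 and 9.61 in the concave libraries of the same numbers and at 3.75, 9.89 and 9.98 in the convex ones. Within a number the curved libraries were always above flat, and the log2 fold change was 1.16 (SE 0.216). Across numbers the groups overlapped, with concave 1 below flat 2 and flat 3 and convex 1 below flat 3. RYR3 (ENSG00000198838, chromosome 15, 33310945 to 33866121, plus strand), a ryanodine receptor that releases calcium from internal stores, gave 1.87, 2.17 and 5.27 CPM in flat, 4.10, 7.82 and 6.52 in concave and 5.92, 5.35 and 11.8 in convex libraries, a log2 fold change of 1.25 (SE 0.261). GABBR1 (ENSG00000204681, chromosome 6, 29555629 to 29633976, minus strand), a subunit of the GABA-B receptor, read 68.3, 68.2 and 119 CPM in flat, 88.4, 132 and 149 in concave and 107, 129.7 and 185 in convex libraries (0.64, SE 0.131). Its number 3 libraries were the highest of each group, so flat 3 overlapped the curved values.

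DDX39B (ENSG00000198563, chromosome 6, 31530219 to 31542448, minus strand), an RNA helicase of splicing and mRNA export, was the most abundant of the 10. Its levels were 166, 119 and 175 CPM in flat, 223, 274 and 235 in concave and 248, 237 and 261 in convex libraries, a log2 fold change of 0.69 (SE 0.139) with no overlap between curved and flat. MRNIP (ENSG00000161010, chromosome 5, 179835133 to 179862173, minus strand), a partner of the MRN complex that senses DNA breaks, also showed no overlap, with 16.9, 14.2 and 18.5 CPM in flat, 24.4, 26.8 and 22.4 in concave and 26.6, 23.1 and 26.7 in convex libraries (0.60, SE 0.123). EME2 (ENSG00000197774, chromosome 16, 1773207 to 1781708, plus strand), a subunit of the MUS81 endonuclease, gave 16.6, 19.5 and 52.9 CPM in flat, 21.7, 32.9 and 76.0 in concave and 24.6, 33.5 and 99.6 in convex libraries (0.66, SE 0.122). The number 3 libraries of EME2 were far above the others in every group, and the log2 difference within that number was 0.71, beside 0.75 within number 2. SLC2A11, a sugar transporter, TTLL3, a ligase that adds glycine to tubulin, and DOK3, an adaptor of tyrosine kinase signalling, were higher by 0.82 (SE 0.158), 0.56 (SE 0.117) and 0.75 (SE 0.134) on the log2 scale.

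**Figure D1:**
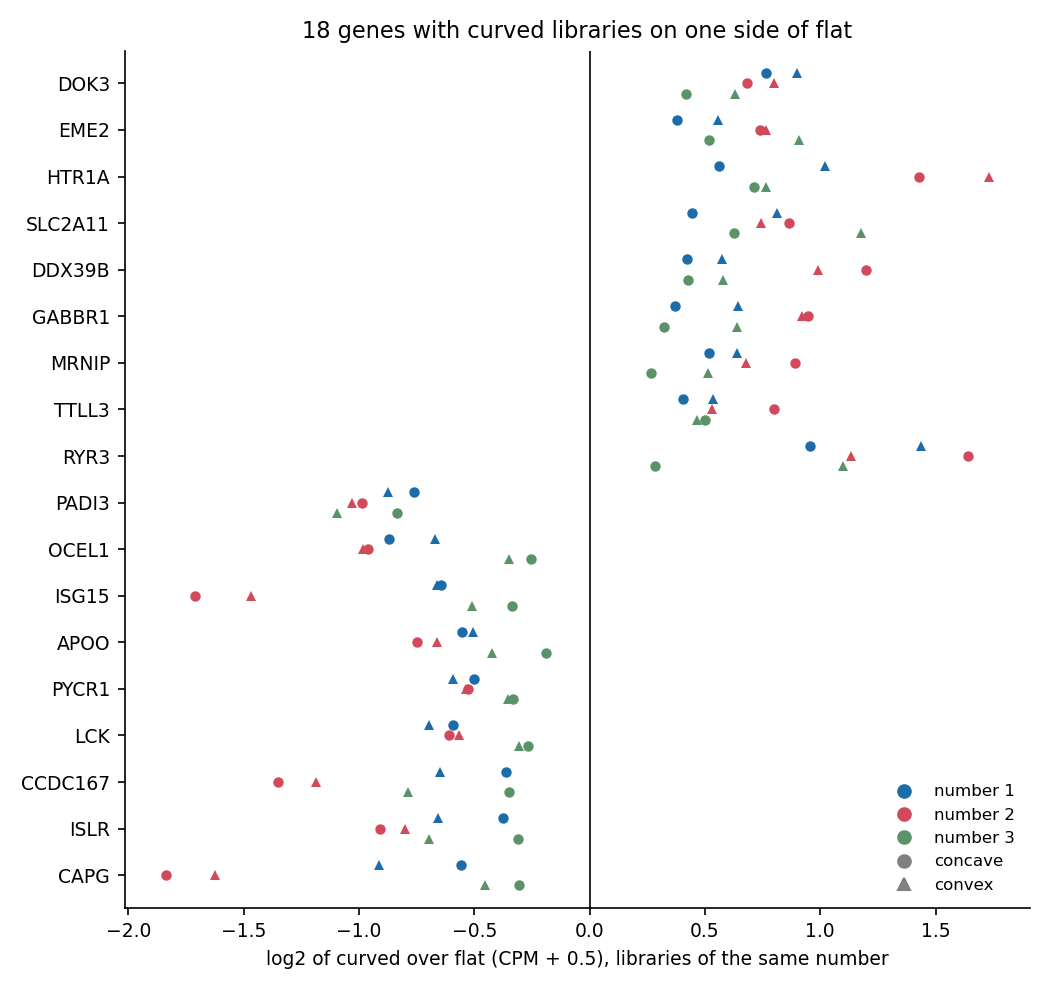
Log2 ratio of each curved library to the flat library of the same number (CPM + 0.5) for 18 of the 20 genes with the smallest p on one side, the higher ones at the top. Circles are concave and triangles convex libraries, colours are replicate numbers, and all 6 points of a gene lie on the same side of 0; the points of ISG15 and CAPG farthest from 0 are those of number 2.

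PADI3 had the smallest p of all 20. PADI3 (ENSG00000142619, chromosome 1, 17249098 to 17284233, plus strand) encodes an enzyme that turns arginine of proteins into citrulline. It stood at 14.1, 7.96 and 3.46 CPM in flat 1, 2 and 3, at 8.09, 3.77 and 1.72 in concave and at 7.43, 3.64 and 1.36 in convex libraries. Levels differed by number, with number 1 highest and number 3 lowest in each group, and within each number both curved libraries were at a similar distance below flat. The log2 fold change was -1.04 (SE 0.138, unadjusted p = 1.78e-05).

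Other genes lower in curved cultures were ISG15 and CAPG, which were farthest from flat in number 2. CAPG (ENSG00000042493, chromosome 2, 85394748 to 85418432, minus strand), which caps actin filaments, gave 29.4, 38.3 and 17.9 CPM in flat, 19.8, 10.4 and 14.4 in concave and 15.4, 12.1 and 12.9 in convex libraries (-1.0033, SE 0.218). APOO (ENSG00000184831, chromosome X, 23833353 to 23907934, minus strand), a part of the complex that shapes mitochondrial cristae, was the gene of the 10 without any overlap, at 37.7, 43.9 and 39.4 CPM in flat, 25.5, 25.9 and 34.5 in concave and 26.4, 27.6 and 29.3 in convex libraries (-0.52, SE 0.109). PYCR1 (ENSG00000183010, chromosome 17, 81932384 to 81942412, minus strand), which makes proline in mitochondria, read 22.1, 16.8 and 14.2 CPM in flat, 15.5, 11.5 and 11.2 in concave and 14.5, 11.5 and 11.034 in convex libraries (-0.49, SE 0.104). For PYCR1 the 2 curved libraries of a number were close to each other in each case. LCK, a kinase of the Src family best known from T cells, and OCEL1, which shares a domain with occludin, were lower with log2 fold changes of -0.53 (SE 0.111) and -0.72 (SE 0.140). CCDC167 and ISLR, a protein with leucine-rich repeats and an immunoglobulin domain, had -0.82 (SE 0.175) and -0.65 (SE 0.138). Across all 24 alternative settings each of the 20 genes kept its direction, APOO at -0.33 after a correction for transcript length.

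**Figure D2:**
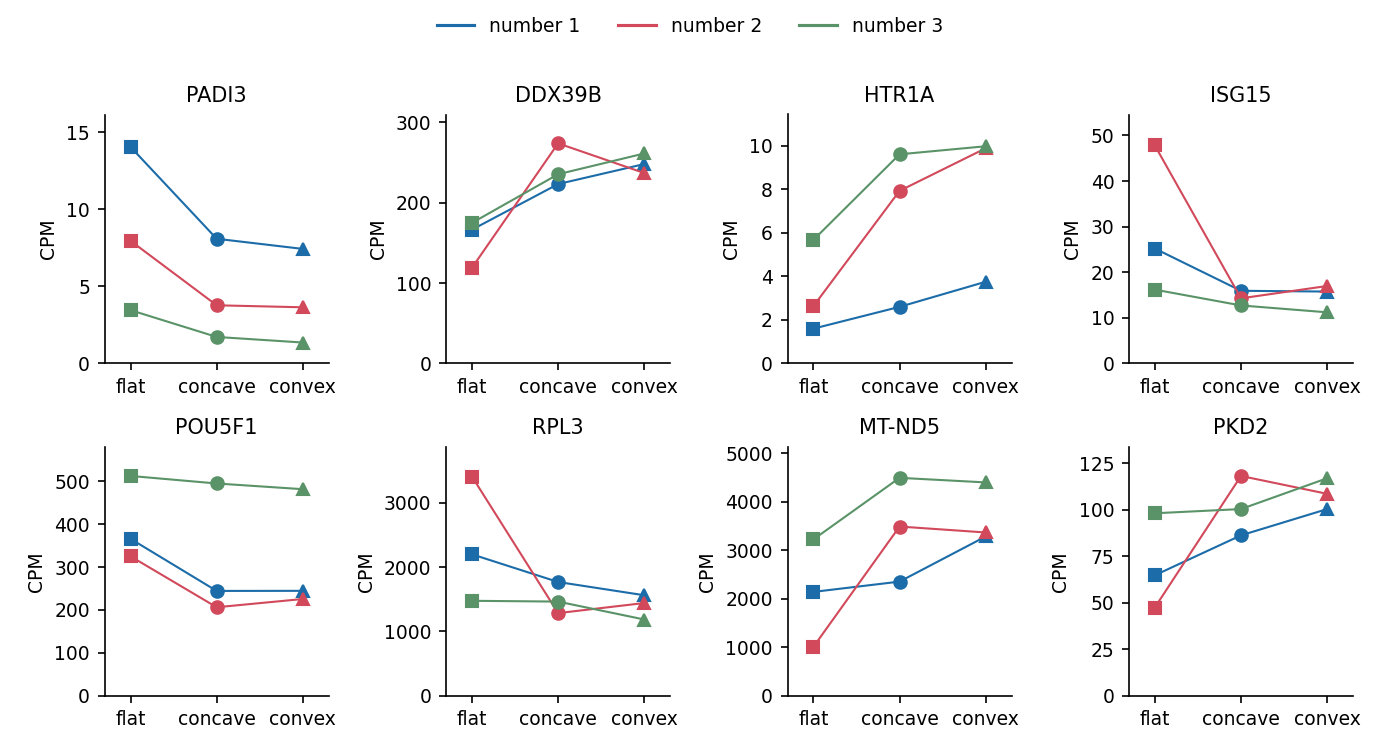
CPM of 8 genes in the flat, concave and convex library of each replicate number, joined by a line per number; the vertical axes start at 0. PADI3 was lower by a similar proportion in each number, whereas ISG15, RPL3 and MT-ND5 differed most in number 2 and POU5F1 hardly differed in number 3 (512, 495 and 481 CPM).

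At the edge of the rule stood genes such as PXN, whose concave 1 library was above flat 1 by less than the printed digits (36.1 CPM in both), and PAX6, which missed it because convex 3 lay just below flat 3 (1.091 and 1.0999 CPM). With a margin of 1.1 times between flat and both curved libraries, 1378 genes remained on one side, 822 higher and 556 lower. All 6 curved libraries lay beyond all 3 flat ones for 959 genes (4.16%), 555 higher (2.41%) and 404 lower (1.75%).

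Genes of the stem cell and of the neuroectoderm lay on one side in shares near that of all genes. Of 23 pluripotency genes tested, 3 lay on one side (2 higher and 1 lower, 13.0% against 16.3% of all genes), 0 were called, and the median log2 fold change was 0.11 beside 0.01 over all genes. POU5F1 (ENSG00000204531, chromosome 6, 31164337 to 31180731, minus strand), the stem cell factor OCT4, was the lower one. It read 366, 325 and 512 CPM in flat, 244, 206 and 495 in concave and 244, 225 and 481 in convex libraries. Numbers 1 and 2 stood far below flat, whereas the 3 libraries of number 3 lay close together and above all others (-0.42, SE 0.120, edgeR adjusted p = 0.168; -0.24 after a correction for transcript length). TERT, the telomerase catalytic subunit, and SALL4, a zinc finger factor, were the 2 higher ones, with log2 fold changes of 0.30 (SE 0.148) and 0.13 (SE 0.098). NANOG was listed at 0 to 0.475 CPM, and no fold is given.

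Among 24 early neuroectoderm genes tested, 2 were higher and 1 lower on one side (12.5% against 16.3% of all genes), with a median of -0.12. The lower one, FEZF1, a forebrain repressor, gave 273, 312 and 187 CPM in flat, 237, 258 and 177 in concave and 265, 290.3 and 119.9 in convex libraries (-0.22, SE 0.134). Only the curved libraries of number 3 lay below the range of the flat ones. PAX6 was above flat in both curved libraries of numbers 1 and 2 and in concave 3 (1.68, 4.48 and 1.0999 CPM in flat, 2.86, 6.44 and 1.30 in concave, 3.28, 7.10 and 1.09 in convex; 0.54, SE 0.185, edgeR adjusted p = 0.170). SOX2 and OTX2 were not on one side (-0.11, SE 0.103, and -0.03, SE 0.104), and the sign of OTX2 changed in some settings.

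Markers of other cells were also measured. Neuron genes had 13 members tested, of which 2 higher and 3 lower lay on one side, 38.5% against 16.3% of all genes. SNCG, gamma-synuclein (ENSG00000173267, chromosome 10, 86958618 to 86963260, plus strand), was lower without overlap, at 40.8, 63.7 and 28.5 CPM in flat, 25.7, 18.4 and 28.3 in concave and 24.7, 19.1 and 20.9 in convex libraries (-0.94, SE 0.232), and flat 3 and concave 3 were almost equal. TUBB3, neuronal beta-tubulin, was higher (0.42, SE 0.155). The summed level of the neuron list was 202 to 273 CPM in flat and 176 to 242 CPM in curved libraries. Neural crest and plate border genes (14 tested) had 1 member on one side, fibroblast, endothelial and blood genes (11 tested) 1, mesoderm and endoderm genes (10 tested) 1, and non-neural ectoderm (16 tested) and amnion and trophectoderm genes (6 tested) 0. The mesoderm member was TBX6, at 5.22, 4.63 and 1.31 CPM in flat, 3.90, 2.36 and 1.01 in concave and 2.68, 2.23 and 0.845 in convex libraries (-0.74, SE 0.185). Summed levels of these 5 lists overlapped between flat and curved libraries. Non-neural ectoderm genes had medians of -0.40, -0.45 and 0.10 in numbers 1, 2 and 3, so 0 on one side does not mean no difference. In the fit without number 3 the medians were -0.40 for non-neural ectoderm and -0.27 for amnion and trophectoderm genes. They were 0.20 for neural crest and plate border, -0.07 for mesoderm and endoderm and -0.13 for fibroblast, endothelial and blood genes. In bulk RNA fewer cells of a type and less RNA per cell cannot be told apart.

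The protein-making and energy genes encoded in the nucleus were lower in nearly all members, and most so in number 2. EdgeR called no member of these lists. All 35 cytosolic ribosomal protein genes had a negative log2 fold change, with a median of -0.59 beside 0.01 over all genes. The median was -0.39 in number 1, -1.28 in number 2 and -0.09 in number 3. Of these 35, 7 lay on one side, all lower (20% against 8.76% lower of all genes), 34 had an unadjusted p under 0.05 and 0 were called by edgeR. RPL3 (ENSG00000100316, chromosome 22, 39312882 to 39320389, minus strand), a protein of the large subunit, gave 2201, 3412 and 1477 CPM in flat, 1769, 1285 and 1465 in concave and 1563, 1442 and 1186 in convex libraries (-0.65, SE 0.196, adjusted p = 0.168). Flat 2 stood far above the other 8 libraries, and flat 3 was close to concave 3. RPS28 of the small subunit gave 226, 465 and 164 CPM in flat, 163, 140.4 and 146 in concave and 157, 168 and 145 in convex libraries (-0.79, SE 0.216). Without flat 2 the median of the list was -0.23, and after a correction for transcript length it was -0.47. In the fit without number 3 it was -0.88. Ribosomal protein genes have many processed pseudogenes, to which reads can be lost.

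Mitochondrial ribosomal proteins, encoded in the nucleus, were lower in 29 of 30 members (median -0.42), with 8 lower (26.7%) and 0 higher on one side, against 8.76% and 7.58% of all genes. Without flat 2 the median was -0.19, and after the length correction it was -0.24. In the fit without number 3 it was -0.60. MRPS7 stood at 66.9, 98.2 and 71.6 CPM in flat, 48.8, 52.2 and 69.1 in concave and 51.9, 57.4 and 60.0 in convex libraries (-0.48, SE 0.131). Flat 1 was below concave 3, so the groups overlapped. Nuclear-encoded subunits of the respiratory chain were lower in 31 of 32 (median -0.56), with 6 lower and 1 higher on one side. This median was -0.24 without flat 2 and -0.80 without number 3. NDUFA2 of complex I read 29.6, 60.5 and 22.6 CPM in flat, 20.7, 18.6 and 22.4 in concave and 19.7, 22.7 and 18.5 in convex libraries (-0.79, SE 0.217). UQCR10 of complex III read 24.4, 60.4 and 21.1 CPM in flat, 19.4, 17.2 and 19.98 in concave and 18.6, 21.3 and 16.5 in convex libraries (-0.78, SE 0.234). For both, flat 2 was the highest library and flat 3 was below convex 2. The exception was NDUFA13, another subunit of complex I, at 3.69, 2.32 and 3.96 CPM in flat, 5.37, 5.95 and 4.95 in concave and 6.02, 4.70 and 6.93 in convex libraries (0.79, SE 0.189), whose exons overlap those of YJEFN3.

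The subunits of the same chain that the mitochondrial genome encodes mostly had the opposite sign. Of 13 mitochondrially encoded genes, 12 had a positive log2 fold change (median 0.33). Among these 12, MT-CO2 and MT-CO3 hardly differed (0.017 and 0.0032). Of the 13 genes, 2 lay on one side (15.4%, near the 16.3% of all genes). MT-ND5 of complex I gave 2142, 1007 and 3224 CPM in flat, 2354, 3491 and 4496 in concave and 3286, 3368 and 4401 in convex libraries (0.83, SE 0.244, adjusted p = 0.168). Flat 2 was the lowest of the 9 libraries, and flat 3 was above concave 1. MT-ND4L, whose exon overlaps that of MT-ND4, gave 649, 139 and 1078 CPM in flat, 837, 990.04 and 1082 in concave and 1079.7, 961 and 1514 in convex libraries (1.04, SE 0.398, adjusted p = 0.177). The medians of the list were 0.01, 0.61 and 0.46 for numbers 1, 2 and 3. The share of mitochondrial counts was lower in flat 2 than in any other library. Its part in these values was not tested.

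**Figure D3:**
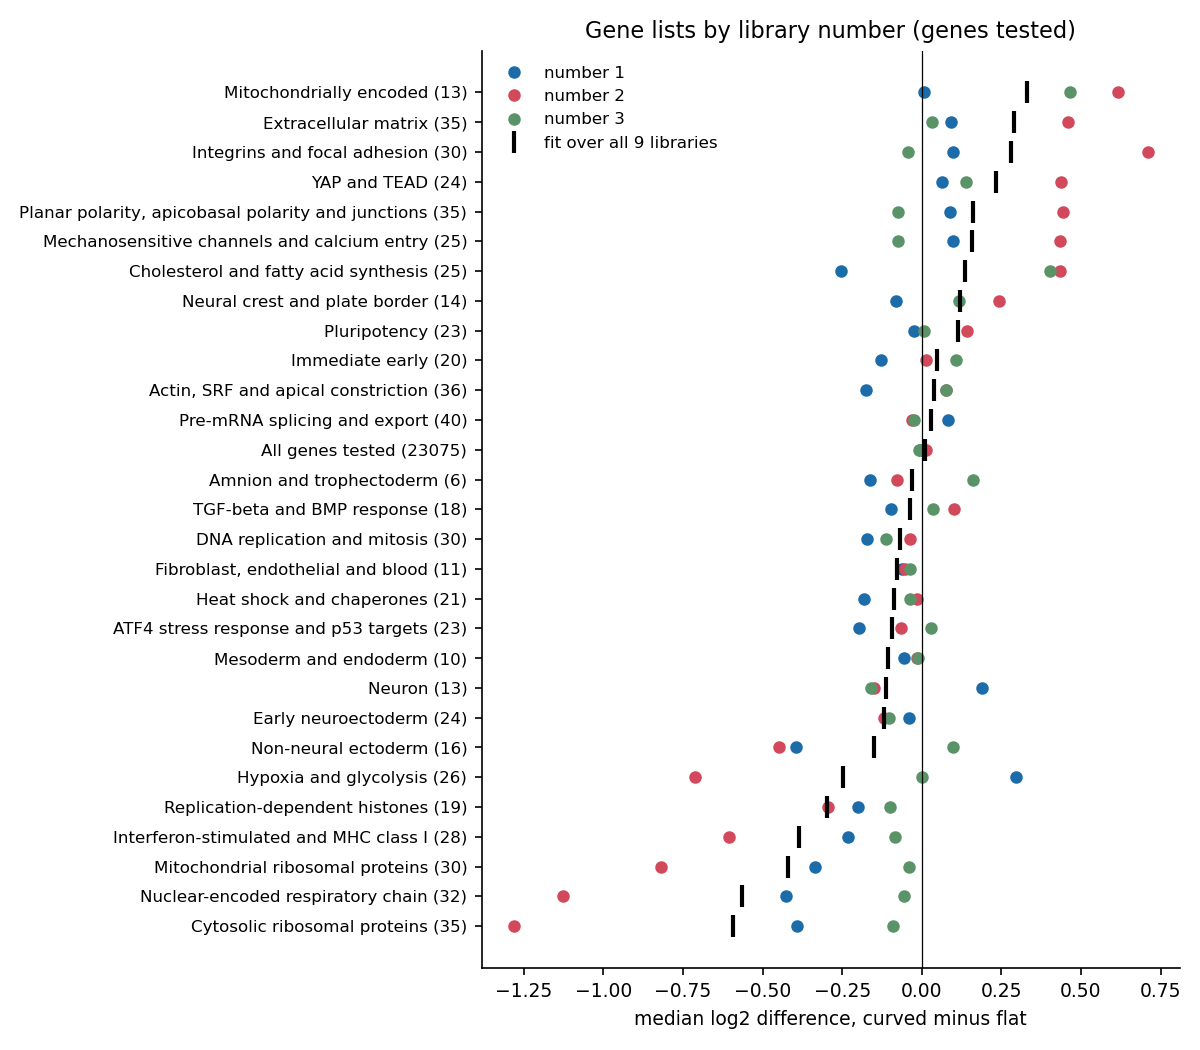
Median log2 difference between curved and flat over the tested genes of each list, as fitted over all 9 libraries (black bar) and for each replicate number from log2(CPM + 0.5) (points); the number of genes tested is in brackets. Cytosolic ribosomal proteins are lowest (median -0.59) and mitochondrially encoded genes highest (0.33), and number 2 lies farthest from 0 in most of the lists with a large median.

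Interferon-stimulated and MHC class I genes were lower in 19 of 28 members (median -0.39), and 8 lower and 1 higher lay on one side, 32.1% against 16.3% of all genes. Type I interferon induces such genes through the factor ISGF3, which binds the interferon-stimulated response element, the ISRE. The sequences below are the 250 bases before the RefSeq start (GRCh38.p14, 5′ to 3′ on the gene's strand) of the 3 members with the smallest p. They are shown because they differ in the ISRE core GAAANNGAAA, searched on both strands, with capitals marking its matches, which overlap each other in ISG15 and BST2. The windows are chr1:1013247-1013496 (plus strand) for ISG15, chr19:17405631-17405880 (minus strand) for BST2 and chr6:32844680-32844929 (minus strand) for PSMB8.
ISG15: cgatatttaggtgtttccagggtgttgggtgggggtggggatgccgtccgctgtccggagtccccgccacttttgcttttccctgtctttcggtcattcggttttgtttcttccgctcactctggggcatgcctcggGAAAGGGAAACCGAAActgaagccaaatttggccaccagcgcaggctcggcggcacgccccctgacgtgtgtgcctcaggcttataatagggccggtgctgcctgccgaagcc
BST2: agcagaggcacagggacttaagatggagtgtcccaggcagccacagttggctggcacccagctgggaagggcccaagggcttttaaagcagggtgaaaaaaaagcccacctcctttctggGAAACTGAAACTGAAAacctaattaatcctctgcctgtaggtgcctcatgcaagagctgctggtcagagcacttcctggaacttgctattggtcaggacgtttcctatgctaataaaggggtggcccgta
PSMB8: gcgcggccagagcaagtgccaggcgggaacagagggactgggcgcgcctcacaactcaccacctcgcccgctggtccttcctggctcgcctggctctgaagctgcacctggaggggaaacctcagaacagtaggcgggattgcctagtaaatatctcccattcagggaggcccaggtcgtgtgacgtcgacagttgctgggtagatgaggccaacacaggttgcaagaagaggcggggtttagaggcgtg
ISG15 and BST2 each held 2 matches and PSMB8 held 0. The core was found in 5 of the 8 list members lower on one side (62.5%) and in 12 of the 22 list members with a sequence (54.5%). It was found in 3.07% of all 27305 promoters in the table, in 2.32% of the 13915 promoters of genes tested, in 2.49% of the 1405 genes with a sequence lower on one side and in 2.12% of the 849 higher on one side. The list was chosen as interferon-stimulated and MHC class I genes, so its shares follow from that choice and say nothing about bending. Only a spacing of 2 bases was searched, so cores with another spacing were missed. A match describes the letters and does not show binding.

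ISG15 (ENSG00000187608, chromosome 1, 1001138 to 1014540, plus strand), a ubiquitin-like protein conjugated to others after interferon, stood at 25.2, 47.8 and 16.2 CPM in flat, 15.9, 14.3 and 12.7 in concave and 15.8, 17.0 and 11.2 in convex libraries (-0.94, SE 0.190). Flat 2 was above all others, and flat 3 lay within the range of the curved libraries. BST2 (ENSG00000130303, chromosome 19, 17402939 to 17405648, minus strand), tetherin, which holds budding viruses at the cell surface, read 300.2, 457 and 144 CPM in flat, 208, 134 and 143 in concave and 162, 145 and 91.6 in convex libraries (-0.94, SE 0.237). Flat 3 and concave 3 of BST2 were nearly equal. PSMB8 (ENSG00000204264, chromosome 6, 32840717 to 32844703, minus strand), a subunit of the immunoproteasome that cuts peptides for MHC class I, was lower without overlap, at 6.96, 8.32 and 6.35 CPM in flat, 4.38, 3.44 and 5.45 in concave and 4.25, 3.49 and 4.72 in convex libraries (-0.77, SE 0.175). HLA-B, an MHC class I heavy chain, IFI6, IFIT1 and TAP1, a peptide transporter, were lower on one side by smaller amounts, with log2 fold changes of -0.63, -0.69, -0.35 and -0.30, and OAS1, an RNA sensor under 1 CPM, with -0.34. STAT2, a component of ISGF3 itself, was the higher member (0.24). None passed edgeR's test, and the list median was -0.21 without flat 2 and -0.53 without number 3.

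Lists of genes that hold a sheet together and sense its shape had positive medians and 0 members called. The shares on one side were 5.71% for matrix, 10.0% for integrin, 12.5% for YAP and TEAD and 11.4% for polarity genes, each under the 16.3% of all genes, and 24.0% for channel genes. After a correction for transcript length the medians were 0.02 for matrix, 0.04 for integrin, 0.04 for channel, 0.15 for YAP and TEAD and -0.04 for polarity genes, and without number 2 they were 0.07, 0.06, 0.01, 0.09 and 0.01. In the fit without number 3 the medians, in the same order, were 0.37, 0.47, 0.24, 0.19 and 0.26. For extracellular matrix genes 25 of 35 were higher (median 0.29), and 2 higher and 0 lower lay on one side. TNC, tenascin C of the matrix (ENSG00000041982, chromosome 9, 115019578 to 115118257, minus strand), gave 21.8, 25.3 and 36.5 CPM in flat, 32.2, 55.3 and 37.5 in concave and 34.3, 64.0 and 41.3 in convex libraries (0.63, SE 0.181, adjusted p = 0.168). Number 3 differed little. LAMA5, a laminin chain of the basement membrane, gave 334, 218 and 427 CPM in flat, 403, 325 and 454 in concave and 360.4, 323 and 615 in convex libraries (0.36, SE 0.130). Of 30 integrin and focal adhesion genes 25 were higher (median 0.28), with 3 higher and 0 lower on one side. These were PXN (paxillin, 0.36, SE 0.153), TLN1 (talin, 0.29, SE 0.135) and ITGA7, a laminin-binding integrin chain (0.15, SE 0.0983). Corrected for length, the log2 fold change of TNC was 0.39, of LAMA5 0.0076, of PXN 0.28, of TLN1 0.0017 and of ITGA7 0.046. Integrin medians were 0.10 in number 1, 0.71 in number 2 and -0.04 in number 3.

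Mechanosensitive channels and calcium entry genes had 4 higher and 2 lower on one side among 25 tested (24.0% against 16.3%; median 0.16). PIEZO1 (ENSG00000103335, chromosome 16, 88715338 to 88785220, minus strand), which opens under membrane tension, stood at 77.5, 51.9 and 90.5 CPM in flat, 85.4, 75.9 and 99.5 in concave and 86.1, 72.4 and 127 in convex libraries (0.33, SE 0.116, adjusted p = 0.172), and 0.049 after the length correction. The flat libraries themselves ranged more widely than flat and curved differed within number 1. PKD2 (ENSG00000118762, chromosome 4, 88007668 to 88077777, plus strand), polycystin-2, a channel of the primary cilium, read 64.7, 47.4 and 98.0 CPM in flat, 86.2, 118 and 100.3 in concave and 100.3, 108 and 117 in convex libraries (0.62, SE 0.183, adjusted p = 0.168). TRPV4, a calcium channel opened by swelling and stretch, was lower, at 8.90, 6.10 and 4.33 CPM in flat, 5.93, 5.66 and 3.29 in concave and 5.47, 4.91 and 2.96 in convex libraries (-0.44, SE 0.142). After the length correction the log2 fold change of PKD2 was 0.47 and that of TRPV4 -0.47.

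YAP and TEAD genes were higher in 18 of 24 (median 0.23), with 3 higher and 0 lower on one side. AMOTL2, an angiomotin that binds YAP, gave 12.1, 12.4 and 27.6 CPM in flat, 20.1, 19.1 and 34.6 in concave and 12.4, 24.1 and 55.0 in convex libraries (0.64, SE 0.197). Actin and apical constriction genes divided, 21 higher and 15 lower of 36 (median 0.04), with 2 higher and 1 lower on one side. SHROOM2, of the family that acts at apical junctions, read 62.8, 43.7 and 75.8 CPM in flat, 65.3, 80.4 and 77.3 in concave and 74.7, 81.0 and 102 in convex libraries (0.41, SE 0.155). FLNA, filamin A, which crosslinks actin, was higher (0.31, SE 0.138), and MYH14, a non-muscle myosin heavy chain, was lower (-0.23, SE 0.100). Polarity and junction genes were higher in 23 of 35 (median 0.16), with 4 higher and 0 lower on one side. CRB2, an apical polarity protein of the Crumbs family, gave 93.7, 63.7 and 80.4 CPM in flat, 115, 101 and 88.9 in concave and 107, 121 and 94.4 in convex libraries (0.40, SE 0.134), flat 1 lying within the curved range. Corrected for length, the log2 fold changes were 0.51 for AMOTL2, 0.17 for SHROOM2, 0.033 for FLNA, -0.46 for MYH14 and 0.22 for CRB2.

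Transcript length differed between the 2 directions. Protein-coding genes higher on one side had a median transcript length of 3665 bases and 11 exons, those lower on one side 2074 bases and 7 exons, and all protein-coding genes tested 2970 bases and 9 exons. Median GC content was 52.2%, 51.5% and 50.2% in the same order. The genes with a length were put into 5 equal bins. In bin 5, the longest (4398 bases and more), 8.23% were higher and 3.15% lower on one side. In bin 2 (909.5 to 1831 bases) the shares were 6.09% and 13.5%. Bin 1, the shortest genes (53 to 909 bases), did not follow this order, with 9.33% higher and 8.24% lower. The median log2 fold change over all genes of bins 5 and 2 was 0.22 and -0.20. In number 2 alone it was 0.49 and -0.32, and in number 3 alone -0.06 and 0.00. After each library's trend with length was subtracted, 3811 of 21940 genes lay on one side, of which 2517 were among the 3496 without the subtraction, and edgeR still called 0 genes (4978 at an unadjusted p under 0.05).

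**Figure D4:**
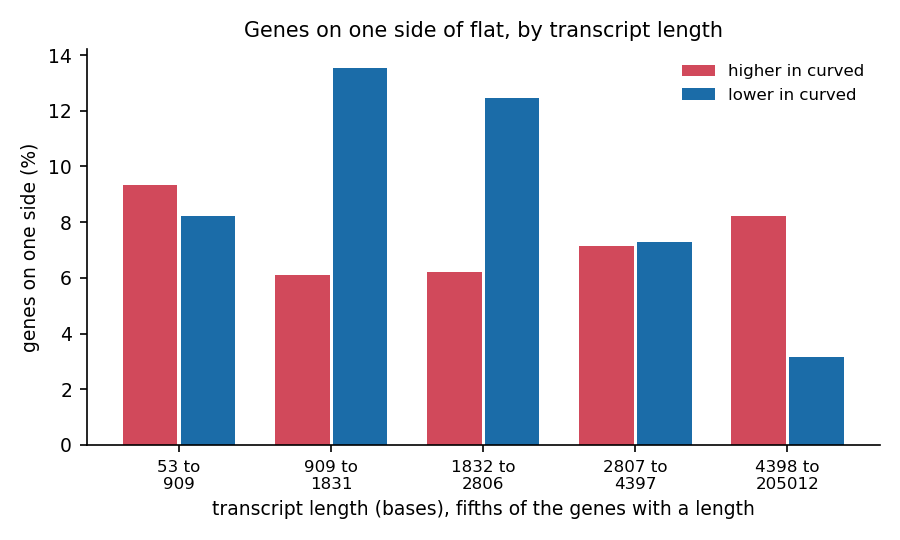
Percent of tested genes on one side, higher (red) or lower (blue) in curved libraries, in 5 bins of transcript length in bases. Lower genes outnumber higher ones in bins 2 and 3, and higher genes outnumber lower ones in the longest bin (8.23% against 3.15%) and, by less, in the shortest (9.33% against 8.24%).

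Gene class differed as well. Of 15523 protein-coding genes tested 5.76% were higher and 10.3% lower on one side. Of 4525 other noncoding genes 12.7% were higher and 5.83% lower, and of 1892 pseudogenes 8.30% and 5.34%. Over all classes, genes higher on one side had a median level of 2.02 CPM, those lower one of 12.6 CPM and all genes tested 5.97 CPM. Among protein-coding genes these medians were 12.5, 21.1 and 20.8 CPM in the same order.

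Pooling both curvatures ignores any difference between them. Concave against convex, with the block, gave 0 calls in edgeR (147 at an unadjusted p under 0.05, smallest adjusted p = 1), and DESeq2 and limma voom also gave 0 (151 and 173). These are fewer genes than that threshold gives with no difference at all. The 0 calls therefore do not show that concave and convex libraries were alike. Taken alone, concave libraries lay on one side of flat for every number in 5484 of the 23075 genes tested, and convex libraries in 11448. These counts have no test, and such signs agree by chance alone in many genes. Both counts rest on the same flat libraries.

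The difference between curved and flat was also compared between the numbers. Each number holds 1 flat library, so the spread in this test comes only from concave against convex within a number, and a difference by number cannot be told apart from a single flat library standing apart. The F test of the interaction in edgeR called 2048 genes (8.88%), of which 225 were on one side, and 15 of the 77 genes named by the rule were among the 2048. Of the 20 genes with the smallest p, ISG15 and CAPG were called (adjusted p = 0.0284 and 0.0278), both being farthest from flat in number 2. The interaction called 32 of 35 cytosolic ribosomal protein genes and 25 of 32 respiratory chain genes. Without number 2 it called 2 genes in all.

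Number 3 was then set beside a fit of numbers 1 and 2 alone. This was done after the data had been seen. Among the genes called higher there and tested in all 9 libraries (2423), convex 3 was above flat 3 in 76.7% and concave 3 below flat 3 in 79.7%. Among those called lower (2557), convex 3 was below flat 3 in 84.5% and concave 3 above it in 72.0%. Flat 3 thus lay between concave 3 and convex 3 for 58.6% and 59.2% of these genes, and for 39.8% of all 22838. The median log2 difference from flat 3 was 0.16 in convex 3 and -0.23 in concave 3 for the higher genes, and -0.19 and 0.09 for the lower ones. In these libraries, convex 3 differed from flat 3 in the same direction as the curved libraries of numbers 1 and 2 for most of the genes, and concave 3 in the opposite one.

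**Figure D5:**
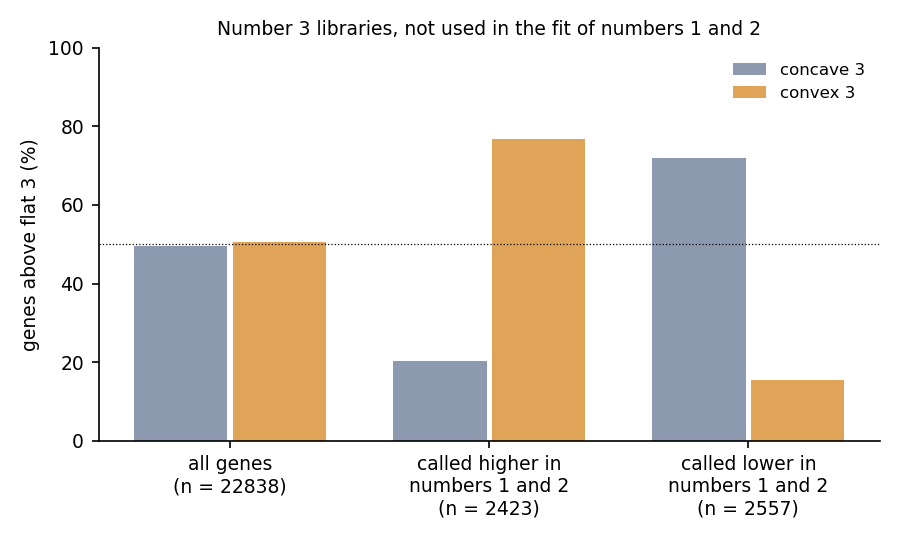
Percent of genes whose level in concave 3 (grey-blue) or convex 3 (orange) was above flat 3, for all genes and for genes called higher or lower in a fit of numbers 1 and 2 alone; the dotted line marks equal shares. For genes called higher, convex 3 was above flat 3 in 76.7%, and for genes called lower concave 3 was above it in 72.0%.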

How the data were processed

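RNA of 9 samples was sequenced from poly-A selected, strand-specific libraries, per the labels' protocols. The authors deposited raw read counts per gene; HISAT2, featureCounts and GRCh38 are named in the submitters' processing notes, while for versions, annotation release and strand handling the sources used here give nothing. All 9 count columns were matched by group and number.

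The analysis used edgeR 4.0.16 under R 4.3.3 (filterByExpr, TMM, robust quasi-likelihood, replicate number plus curved, common biological coefficient of variation 0.203). P-values were two-sided and adjusted by Benjamini-Hochberg over all 23075 genes; genes with an adjusted p under 0.05 were called. SE is the log2 fold change divided by the square root of F. Differences by number are on log2(CPM + 0.5). Symbols were found for 62639 genes and positions and lengths (GENCODE v29, GRCh38) for 58274. DESeq2 1.42.0 and limma 3.58.1 were alternatives, beside other scalings, filters and left-out libraries. The test was checked on simulated counts.

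The groups share replicate numbers. Pearson r between libraries of the same number, for numbers 1, 2 and 3, was 0.49, 0.0339 and 0.397 for flat with concave, 0.509, 0.4927 and 0.701 for flat with convex, and 0.709, 0.414 and 0.710 for concave with convex. Not every pair was over 0.1, so the numbers are not shown to pair the libraries; the block is part of the comparison as defined. No 2 replicates agreed within sampling noise (chi-square per degree of freedom 19.7 to 284.6).

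Genes named were the 10 with the smallest p per direction (on one side, at least 5 CPM; 4 higher and 1 lower without a symbol or of pseudogene type passed over), up to 3 members on one side per list (at least 1 CPM), and POU5F1, SOX2, OTX2, PAX6, NANOG and DDX39B. Some of these genes are not reported here. The comparison, the members and the lists were chosen with earlier results of these data known. Of the 77 named genes 43 share exon bases with another gene (16 on the same strand), among them DDX39B with ATP6V1G2-DDX39B and TTLL3 with ARPC4-TTLL3, and such counts are uncertain. Promoter sequences are RefSeq's (GRCh38.p14).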

Additional observations from a re-analysis of the deposited data

Results flagged for a closer look

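The libraries numbered 3 need a closer look, since concave 3 and convex 3 lay on opposite sides of flat 3 for most genes called in numbers 1 and 2, and the labels of these libraries could not be checked here. The 0 calls and the count of genes on one side rest on them.

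EdgeR's interaction test of curved with replicate number called 2048 genes. With 1 flat library per number, such a call cannot be told apart from a single flat library standing apart, and without number 2 the test called 2 genes. Among the named genes it called ISG15 (adjusted p = 0.0284), CAPG (0.0278), SNCG (0.0201), BST2 (0.0455) and BBC3 (0.0496), all lower in curved libraries. It called the ribosomal protein genes RPS28 (adjusted p = 0.0158) and RPL3 (0.0320), and the respiratory chain genes NDUFA2 (0.0228), UQCR10 (0.0197), MT-ND5 (0.0255) and MT-ND4L (0.00889). It also called TNC (adjusted p = 0.0300) and PKD2 (0.0320), which were higher. In each of these genes the difference was largest in number 2.

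Of 74 measures tested for a library far from the other 5 curved ones, 4 had one, and chance gives about 1 in 20. Convex 3 stood above the rest for TERT (10.0 CPM), MT-ND4L (1514 CPM) and PXN (60.7 CPM), and concave 1 for CDK1 (139.5 CPM).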

How the results depend on the processing

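The count of 0 calls held under other scalings, at an adjusted p under 0.1, with limma voom, with averaged curved coefficients or summed curved counts, without the robust option, with a filter of 1 CPM in 3 libraries and with the length correction. Without the replicate block it was also 0 (3107 genes at an unadjusted p under 0.05, against 5511 with the block), and concave against convex without the block gave 0 (65). With no filter beyond 1 count, 3 genes were called (1 higher, 2 lower), and DESeq2 called 1077 (517 higher, 560 lower). Leaving out libraries gave 0 to 5002 calls (0 to 2433 higher, 0 to 2569 lower). A margin of 1.1 times left 1378 genes on one side, and leaving out a curved library gave 3947 to 9156. The interaction with number called 3550 genes by DESeq2 and 2 to 3583 with a number left out. The cause of these shifts was not tested.

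Of 77 named genes 72 kept their direction under all 24 alternatives, and 41 were called by DESeq2, which called 4.67% of all genes tested. Most of the named genes were chosen from these libraries by side and by p. Both counts therefore describe them and do not support the comparison. With the length correction SALL4 stood at -0.0362, ARHGEF17 at -0.0170 and PCNA at 0.0119 (log2). OTX2 stood at 0.0181 with library size only and between -0.0676 and 0.0109 with libraries left out, NANOG between -1.215 and 0.377. Of the list medians 52 moved and 23 changed sign.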

Other observations

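EdgeR called 0 members of the following gene groups, and 16.3% of all genes lay on one side. DNA replication and mitosis genes had 4 lower and 0 higher on one side among 30 tested (13.3%; median -0.07). CCNB1, the cyclin that drives entry into mitosis, was lower without overlap, at 289, 336 and 306 CPM in flat, 239, 253 and 278 in concave and 231, 265 and 263 in convex libraries (-0.28, SE 0.0958, edgeR adjusted p = 0.170). CDK1, its kinase partner, gave -0.19 (SE 0.1). Of 19 histone genes 5 were lower on one side (26.3%). The median of -0.30 was 0.06 with a filter of 1 CPM in 3 libraries, -0.03 without flat 1, -0.07 without flat 2 and -0.08 after the length correction. Among the 5 was the linker histone H1-2, at 28.0, 35.3 and 36.2 CPM in flat, 21.5, 18.9 and 32.0 in concave and 20.8, 20.7 and 27.4 in convex libraries (-0.52, SE 0.123). Replication-dependent histone mRNAs mostly lack poly-A tails, so a poly-A library counts them in part. BBC3, the p53 target PUMA, was lower without overlap although number 3 hardly differed, with 32.1, 44.7 and 26.0 CPM in flat, 22.1, 19.4 and 25.4 in concave and 24.4, 24.2 and 25.5 in convex libraries (-0.53, SE 0.166). MDM2, another p53 target, was higher (0.23, SE 0.114).

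Hypoxia and glycolysis genes had a median of 0.30 in number 1, -0.71 in number 2 and 0.00 in number 3, and their fitted median of -0.25 was 0.22 without number 2. ADM, adrenomedullin, a secreted peptide, ranged from 0.429, 1.73 and 10.999 CPM in flat to 15.3, 2.33 and 15.6 in concave and 3.16, 3.89 and 25.9 in convex libraries (1.66, SE 0.676). TPI1, a glycolytic enzyme, was lower, most so in number 2 (768, 1229.7 and 665 CPM in flat, 758, 492 and 629.98 in concave, 548, 551 and 531 in convex). Cholesterol and fatty acid synthesis genes were higher in 20 of 25 (median 0.14), and 0 lay on one side; their medians were -0.25, 0.44 and 0.40 for numbers 1, 2 and 3. Heat shock genes had 3 lower on one side of 21, among them CRYAB (-0.75, SE 0.214) and DNAJB1 (-0.27, SE 0.106). Splicing and export genes had 4 higher, DDX39B among them, and 2 lower of 40. Immediate early genes had 1 of 20, FOSL2 (0.57, SE 0.297), and TGF-beta and BMP response genes 1 of 18, GREM1 (0.62, SE 0.264), a BMP antagonist.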
